A study of Homo sapiens with 6 samples.

Results

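HEK293T cells, a line derived from human embryonic kidney, were grown without addition or with 10 μM N2-heptynyl-dG for 3 h, and were then exposed to 5 mM N3-kethoxal for 10 min. The nucleoside carries an alkyne-bearing chain on the amino group of guanine, and cells can build it into their DNA. By the labels, spKAS-seq was run on 2 samples of untreated and 2 of treated wild-type cells, beside 2 inputs. R-loop peaks called by the authors were analysed here from 1 list per condition, so no value below has a spread between replicates, and the intervals are 95% binomial intervals (Wilson for shares, Newcombe for differences) that cover counting error among peaks only. Described here are the R-loop peaks in long noncoding RNA (lncRNA) genes. A peak was included when its midpoint fell inside a GENCODE release 44 gene record of the type lncRNA (GRCh37 coordinates) and more than 1000 bp from every protein-coding gene record. The rule gave 625 of 10231 peaks in the untreated list (6.11%, interval 5.66% to 6.59%) and 683 of 11085 in the treated list (6.16%, 5.73% to 6.62%). Without the distance requirement, 1747 untreated and 1902 treated peaks had their midpoint in a lncRNA record, so the rule kept 35.8% and 35.9% of them. The rule places peaks by position only, and does not show which RNA, if any, was paired with the DNA.

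An R-loop is a nucleic acid structure in which RNA pairs with one strand of a DNA duplex and the other DNA strand is left single-stranded. spKAS-seq labels guanine in single-stranded DNA with N3-kethoxal and keeps the strand of the labeled DNA, so each peak has a strand. Because the displaced strand has the sequence of the RNA, an R-loop formed by a transcript lies on the strand of its gene. Long noncoding RNAs are transcripts with little or no coding capacity. They include architectural RNAs such as NEAT1, RNAs that act on the chromosome from which they are made such as XIST, and host transcripts whose introns or exons release small nucleolar RNAs (SNHG genes) or microRNAs (MIR host genes). Many others are known only by a clone or Ensembl name, and many start close to or run antisense to coding genes, which is why the distance requirement matters for reading the strand.

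Peaks in 2 settings carry much of what follows, and their sequences are shown first. The first set is from ENSG00000283360, the lncRNA record with the most peaks (chr1:161373199-161440313, minus strand). In 24 of its 26 peaks over both lists the letters GTTCGANTC, which are those of the B box, an internal promoter element of transfer RNA (tRNA) genes, were found on either strand. Over all peaks, 1.06% of the untreated and 1.03% of the treated list held these letters. The sequences below are GRCh37, on the strand of the peak, with the B box letters in capitals. They come from chr1:161411325-161411413 (plus strand), chr1:161418025-161418113 (minus), chr1:161435248-161435336 (plus) and chr1:161424390-161424462 (minus), and they are those of tRNA genes for leucine, aspartate, glycine and glutamate in this order.
Peak at 161410963, plus strand: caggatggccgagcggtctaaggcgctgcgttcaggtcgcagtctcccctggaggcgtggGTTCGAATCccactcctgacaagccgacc
Peak at 161417463, minus strand: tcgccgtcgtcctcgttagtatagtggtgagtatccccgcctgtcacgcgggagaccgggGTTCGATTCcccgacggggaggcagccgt
Peak at 161435213, plus strand: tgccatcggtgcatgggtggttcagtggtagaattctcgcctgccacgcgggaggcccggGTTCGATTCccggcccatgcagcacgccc
Peak at 161423963, minus strand: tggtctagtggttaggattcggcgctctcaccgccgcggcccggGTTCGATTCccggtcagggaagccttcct

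The second set shows guanine-rich stretches on the peak strand of wide peaks, since N3-kethoxal reacts with guanine. In each peak shown the 120 bases with the highest number of G minus C on the peak strand are given, with runs of 3 or more G in capitals. The windows are chr7:75021591-75021710 (plus, widest peak shared between the lists, in ENSG00000290951 and ENSG00000290834), chrX:73037817-73037936 (minus, next widest shared, in TSIX), chr17:56421089-56421208 (minus, TSPOAP1-AS1) for a peak among the widest of the untreated list alone, and chrX:73456564-73456683 (minus, FTX) for one among the widest of the treated list alone. That of NEAT1 (chr11:65195325-65195444, plus) is from the widest peak of the gene. These 5 windows held 33 to 64 G and 12 to 21 C, with 2 to 4 runs of G, the most G in the shared peak on chromosome 7. The excess of G in the windows follows from how they were picked. Over each whole peak the excess of G over C, divided by the number of both, was between -0.038 (chromosome 7) and 0.049 (NEAT1).
ENSG00000290951, shared: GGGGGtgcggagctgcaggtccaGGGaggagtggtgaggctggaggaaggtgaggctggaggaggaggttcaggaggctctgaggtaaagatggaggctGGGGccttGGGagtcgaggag
TSIX, shared: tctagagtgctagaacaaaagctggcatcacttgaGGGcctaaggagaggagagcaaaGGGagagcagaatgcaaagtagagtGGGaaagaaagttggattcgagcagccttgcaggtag
TSPOAP1-AS1, untreated only: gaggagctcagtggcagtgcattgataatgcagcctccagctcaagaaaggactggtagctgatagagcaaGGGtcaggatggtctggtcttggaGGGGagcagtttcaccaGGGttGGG
FTX, treated only: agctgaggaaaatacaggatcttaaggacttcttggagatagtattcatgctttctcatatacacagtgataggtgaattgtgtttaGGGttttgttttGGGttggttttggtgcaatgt
NEAT1, shared: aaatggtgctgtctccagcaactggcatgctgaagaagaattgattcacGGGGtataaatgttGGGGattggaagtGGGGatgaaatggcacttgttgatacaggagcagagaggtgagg

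Most R-loop peaks in lncRNA genes lay on the strand of the lncRNA. In the untreated list 414 of 625 peaks did so (66.2%, interval 62.4% to 69.8%), 172 lay on the opposite strand (27.5%) and 39 fell in records of both strands (6.24%). The treated list gave 463 of 683 peaks on the strand of the lncRNA (67.8%, 64.2% to 71.2%), 174 on the opposite strand (25.5%) and 46 in records of both strands (6.74%). The share on the lncRNA strand differed between the lists by 1.55 points (-3.54 to 6.64), an interval that spans 0. Leaving out the peaks in records of both strands, 70.7% of untreated and 72.7% of treated peaks were on the lncRNA strand. For peaks in protein-coding records the same shares were 81.1% and 79.4%. The strand of the gene was thus met less often in lncRNA than in coding genes, with differences of -10.5 points in the untreated list (-14.4 to -6.77) and of -6.71 points in the treated list (-10.4 to -3.24). The lower share was not met farther from coding genes. Of the lncRNA peaks more than 5000 bp from every coding record, 76.8% and 76.5% were on the lncRNA strand, compared with 76.8% and 75.2% of all peaks in coding records when those in records of both strands are counted too.

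The lncRNA starts held many of the peaks, and those peaks had the strand of the gene most often. In the untreated list 226 peaks (36.2%, 32.5% to 40%) and in the treated list 261 (38.2%, 34.7% to 41.9%) had their midpoint within 1 kb of the start of the record. The difference between the lists was 2.05 points (-3.19 to 7.27). Peaks in coding records were within 1 kb of the record start in 49.6% and 50.6%, so that lncRNA genes differed from them by -13.4 points (-17.3 to -9.37) and -12.4 points (-16.2 to -8.51). The lower share was not met when the distance requirement, which applies to the lncRNA peaks alone, was dropped. Of peaks in lncRNA but outside coding records, 51.3% (untreated, 48.4% to 54.3%) and 53.4% (treated, 50.6% to 56.3%) were within 1 kb of the start. These intervals overlapped those of peaks in coding records (48.3% to 50.9% and 49.4% to 51.8%). When the start of any transcript of the gene was allowed, 47.8% of untreated and 49.9% of treated lncRNA peaks were within 1 kb. The median distance from the record start was 2782 bp (untreated) and 2780 bp (treated), with quartiles of 409 and 17295 bp and of 357 and 19259 bp, and the farthest peaks were at 696278 and 692477 bp. Records with peaks were long, with median lengths of 22659 bp (untreated) and 24390 bp (treated), compared with 6232 bp over all 18702 lncRNA records. A longer record has more room for a midpoint, and all records include those the distance requirement bars. The contrast in length can therefore follow from the rule. An exon of the lncRNA held the midpoint of 42.7% of untreated and 45.7% of treated peaks.

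Within 1 kb of the start, 183 of 226 untreated peaks (81.0%) and 206 of 261 treated peaks (78.9%) were on the lncRNA strand. From 1 to 5 kb the share was 60.6% of 127 and 60.7% of 122 peaks. It was 52.0% of 127 and 61.9% of 134 peaks from 5 to 20 kb, and 63.6% of 118 and 62.2% of 135 peaks from 20 to 100 kb. Beyond 100 kb, 13 of 27 untreated and 16 of 31 treated peaks were on the lncRNA strand. The share was higher within 1 kb than beyond 100 kb by 32.8 points in the untreated list (14.1 to 50.8) and by 27.3 points in the treated list (10.1 to 44.7). Between these ends, the classes from 1 to 100 kb overlapped in their intervals and show no order.

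**Figure D1:**
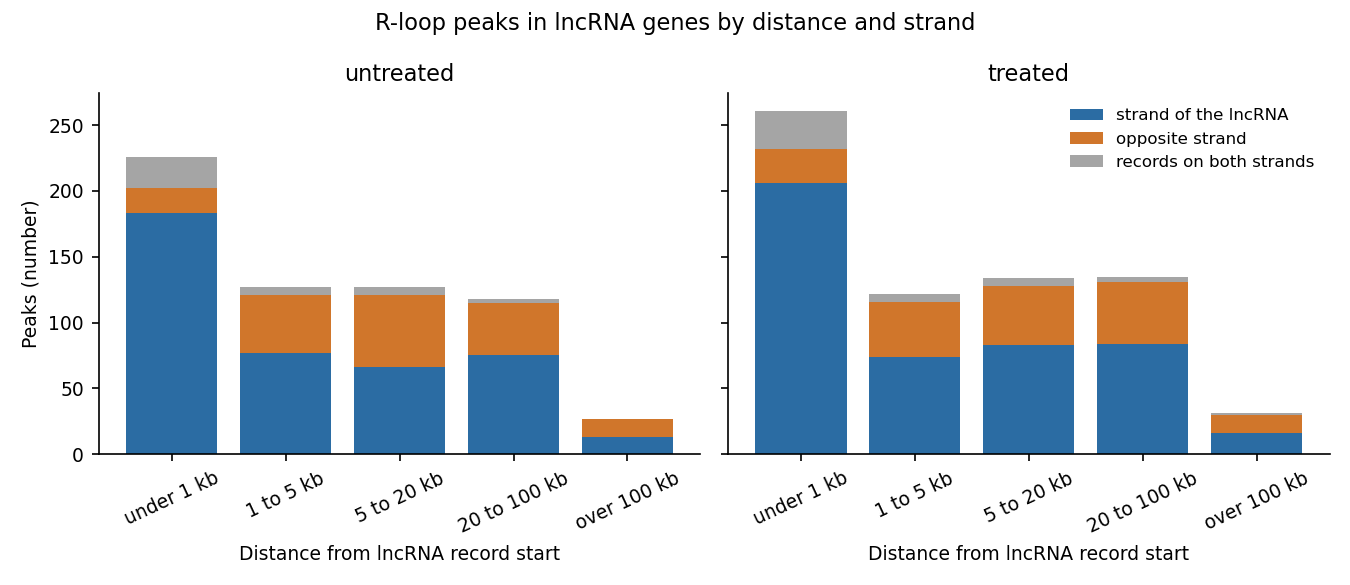
Number of R-loop peaks in lncRNA genes (vertical axis) by distance of the peak midpoint from the start of the lncRNA record (horizontal axis), in the untreated (left) and treated list (right), coloured by strand relative to the lncRNA. The class under 1 kb is the tallest in both lists, with 226 and 261 peaks, and holds few peaks on the opposite strand (19 and 26).

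Peaks on the opposite strand lay behind a coding gene more often than peaks on the lncRNA strand did. Among the peaks on the opposite strand, 102 of 172 in the untreated list (59.3%, 51.8% to 66.4%) and 94 of 174 in the treated list (54.0%, 46.6% to 61.3%) were beyond the 3′ end of the nearest coding record, on the strand of that coding gene and within 20 kb of it. Of the peaks on the lncRNA strand, 61 of 414 (14.7%) and 71 of 463 (15.3%) were placed in this way. The difference was 44.6 points in the untreated list (36.2 to 52.3) and 38.7 points in the treated list (30.5 to 46.5). An annotated transcript start on the peak strand lay within 1 kb of 4.65% of untreated and 6.32% of treated opposite-strand peaks, and of 58.5% and 60% of the peaks on the lncRNA strand. Starts of the lncRNA itself can count only for peaks on its strand, and the distance requirement bars starts of coding genes. The contrast in transcript starts therefore follows in large part from the definitions. Whether the RNA in the opposite-strand R-loops came from the coding gene was not tested, since no RNA was measured.

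The same arrangement was seen in the distance to the coding gene. The median distance from a peak to the nearest coding record was 14196 bp for untreated and 16143 bp for treated cells. Of the 219 untreated and 215 treated peaks 1 to 5 kb from a coding record, 136 (62.1%) and 129 (60%) were beyond its 3′ end on its strand. At 5 to 20 kb this share was 25.0% of 136 and 27.5% of 153 peaks. The peaks on the lncRNA strand went the other way, from 46.6% and 48.8% at 1 to 5 kb to 73.5% and 76.5% at 5 to 20 kb and to 87.1% of 93 and 80.0% of 105 peaks at more than 100 kb. At 20 to 100 kb the share on the lncRNA strand was 74.0% and 74.8%. In both lists it was thus lowest at 1 to 5 kb from a coding gene and highest beyond 100 kb. From 5 kb on, the intervals of the classes overlapped in each list. The share beyond the 3′ end on the coding strand was 26.6% and 27.1% at 20 to 100 kb, and 22.6% and 19.05% beyond 100 kb.

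**Figure D2:**
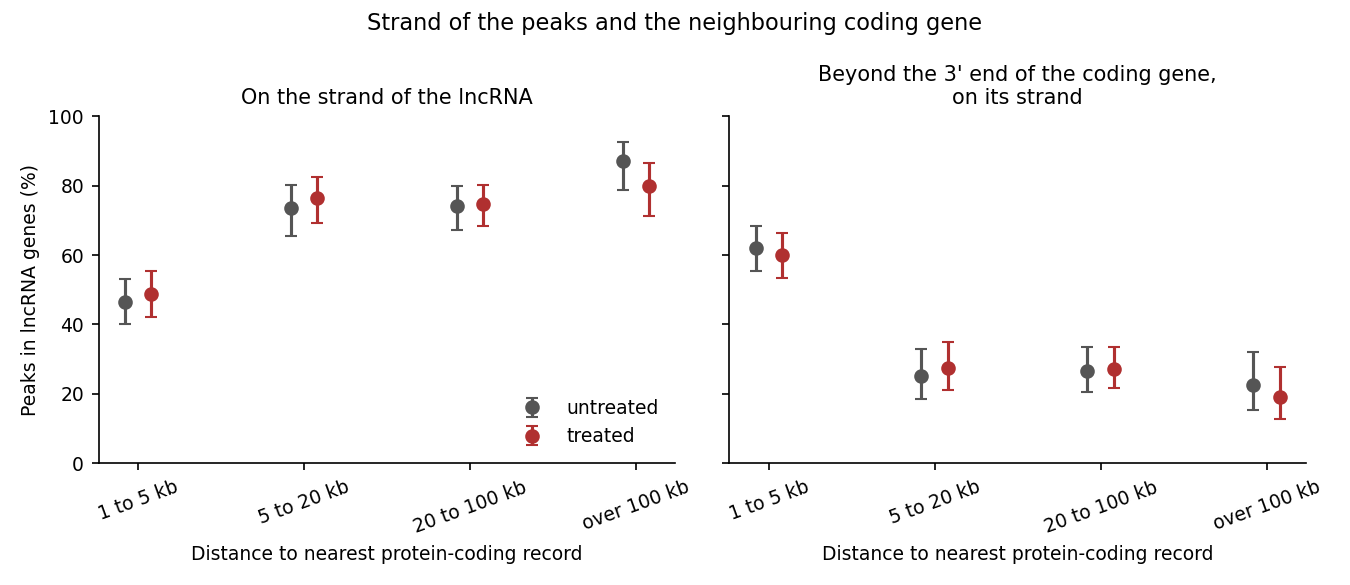
Share of R-loop peaks in lncRNA genes (vertical axis, %) that lay on the lncRNA strand (left) or beyond the 3′ end of the nearest coding gene on its strand (right), by distance to that coding record (horizontal axis), with points for the lists and bars for 95% Wilson intervals. The left share is lowest (46.6% and 48.8%) and the right share highest (62.1% and 60%) at 1 to 5 kb.

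Named examples, chosen after their values were seen as the widest of this kind, were found in both lists. A peak in MIF-AS1 and ENSG00000290199 was 3000 bp wide in the untreated list (chr22:24239011-24242010) and 2750 bp wide in the treated list, on the plus strand beyond MIF, which encodes a cytokine. In NIFK-AS1 a minus-strand peak was 2500 bp wide in untreated cells (chr2:122481551-122484050) and 2750 bp in treated cells, and its midpoint was 1720 and 1595 bp from NIFK. CCDC144NL-AS1, which is convergent with USP22, a histone deubiquitinase gene, had a minus-strand peak of 2000 bp in each list with the midpoint 1135 and 1385 bp beyond USP22. Of the 5 widest peaks found in the untreated list alone, 3 lay in the same position, beyond SUPT4H1 (in TSPOAP1-AS1), DCAF12 (in ENSG00000228352) and MIB1 (in ENSG00000264149). Of the 5 widest found in the treated list alone, those in ATF6-DT and ENSG00000259678 lay beyond DUSP12 and DMXL2.

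The lncRNA with the most R-loop peaks was ENSG00000283360, with 12 untreated and 14 treated peaks. RefSeq places 27 tRNA genes between CFAP126 and FCGR2A, the coding genes on either side, of which 10 are named as glycine, 5 each as aspartate, glutamate and leucine, and 1 each as asparagine and valine tRNA genes. tRNA genes are short, are transcribed by RNA polymerase III and are not lncRNA records. The untreated peaks were split between the strands, with 6 on the strand of the lncRNA and 6 on the opposite strand, and the treated ones with 6 and 8. All 12 untreated peaks and 12 of 14 treated peaks held the B box letters, on the strand of the peak in the 12 untreated peaks. Peaks of 1 strand recurred 7250 to 7500 bp apart along the array: those at 161410963, 161418463, 161425963 and 161433213 on the plus strand, which hold the leucine tRNA sequence, had 99.3% to 100% of their bases in common. On the minus strand the peaks at 161417463, 161424963, 161432213 and 161439713, which hold the aspartate tRNA sequence, were identical over the bases compared. The peaks of the lists matched closely, and 20 of the 26 had identical borders and strand in both lists. The peaks at 161390463 and 161413213 were found in the treated list alone. Of the 26 peaks, 25 lay in repeated sequence, so that a read may fit more than 1 copy, and the number of copies with an R-loop is not known from these lists.

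Outside this array, the letters were found in few peaks. Over all peaks in lncRNA genes, 23 untreated (3.68%) and 22 treated (3.22%) held them, 12 of each in ENSG00000283360. Peaks of NEAT1 were among the others.

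Among the architectural RNAs, NEAT1 and MALAT1 had several peaks each, all on the strand of the gene. NEAT1, the scaffold of nuclear paraspeckles (chr11:65190245-65213011, plus strand), had 3 untreated peaks of 1500, 3250 and 2000 bp, with midpoints 981, 5856 and 21981 bp from the record start. In the treated list it had 4 peaks of 750, 1500, 1000 and 2500 bp, at 606, 5231, 6981 and 21981 bp. Each of these overlapped a peak of the other list, and the widest untreated peak was matched by 2 treated peaks. MALAT1, an abundant RNA of nuclear speckles (chr11:65265111-65275544, plus strand), had 3 peaks of 750, 750 and 1750 bp at 1490, 2990 and 9990 bp from the record start, and all 3 had the same borders in both lists. The MALAT1 peaks at 1490 and 2990 bp had a GC skew of 0.221 and 0.331 (the excess of G over C on the peak strand, divided by the number of both), above the upper quartile of 0.060 for untreated peaks in lncRNA genes. The widest MALAT1 peak, at 9990 bp, had a skew of 0.023, below that quartile. NORAD, which binds Pumilio proteins, had 1 peak of 1000 bp with the same borders in both lists, 355 bp from its start.

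Genes of the X-inactivation centre formed a run of peaks. XIST, the RNA that coats an X chromosome that is silenced (chrX:73040484-73072558, minus strand), had 3 untreated peaks at 352, 1727 and 7602 bp from the record start and 4 treated peaks at 352, 1852, 7602 and 19602 bp, all on its strand. The treated peak at 19602 bp had no partner in the untreated list. TSIX, which is transcribed antisense to XIST, held the widest peak of the X chromosome in lncRNA genes, 3250 bp wide without treatment (chrX:73036581-73039830) and 3500 bp wide with it. It lay on the strand opposite to TSIX, 653 bp beyond the 3′ end of the XIST record and on the strand of XIST. JPX, a positive regulator of XIST (chrX:73164017-73290243, plus strand), had 3 peaks in each list on its strand, at 314, 33939 and 71439 bp in untreated and at 314, 33939 and 71064 bp in treated cells. FTX, another noncoding gene of the centre (chrX:73160270-73513409, minus strand), overlaps JPX, so that the JPX peaks also count as opposite-strand peaks of FTX. With these, FTX had 6 untreated and 7 treated peaks, of which 2 and 3 were on its own strand. The FTX-strand peaks were found in 1 list only: at 1453 and 89328 bp in untreated, and at 78, 56703 and 111828 bp in treated cells.

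Further lncRNA genes with 6 or more peaks over both lists fell into 2 kinds. FIRRE, a nuclear RNA of the X chromosome, had 3 peaks in each list on its strand, of which the one at 515 bp from the start had the same borders in both and the untreated peak at 101765 bp and the treated peak at 78015 bp had no partner. CHASERR, which lies upstream of CHD2 and is known to limit its expression, had 4 untreated and 3 treated peaks on both strands. The minus-strand peak of 1000 bp at chr15:93424883-93425882, 4050 bp from CHD2, had the same borders in both lists. Its midpoint also falls in ENSG00000288872, a minus-strand lncRNA record (chr15:93424878-93425570), so that it counts as a peak on the strand of that gene. The other four, ENSG00000285756, ENSG00000288632, ENSG00000290951 and FAM27C, had all their peaks on the gene strand and all in repeated sequence. ENSG00000285756 on the X chromosome had 2 untreated and 6 treated peaks, FAM27C and ENSG00000288632 had 2 and 4 each, and ENSG00000290951 had 3 and 3. ENSG00000290951 held the widest treated peak, 3750 bp at chr7:75019789-75023538, which overlapped an untreated peak of 2000 bp.

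**Figure D3:**
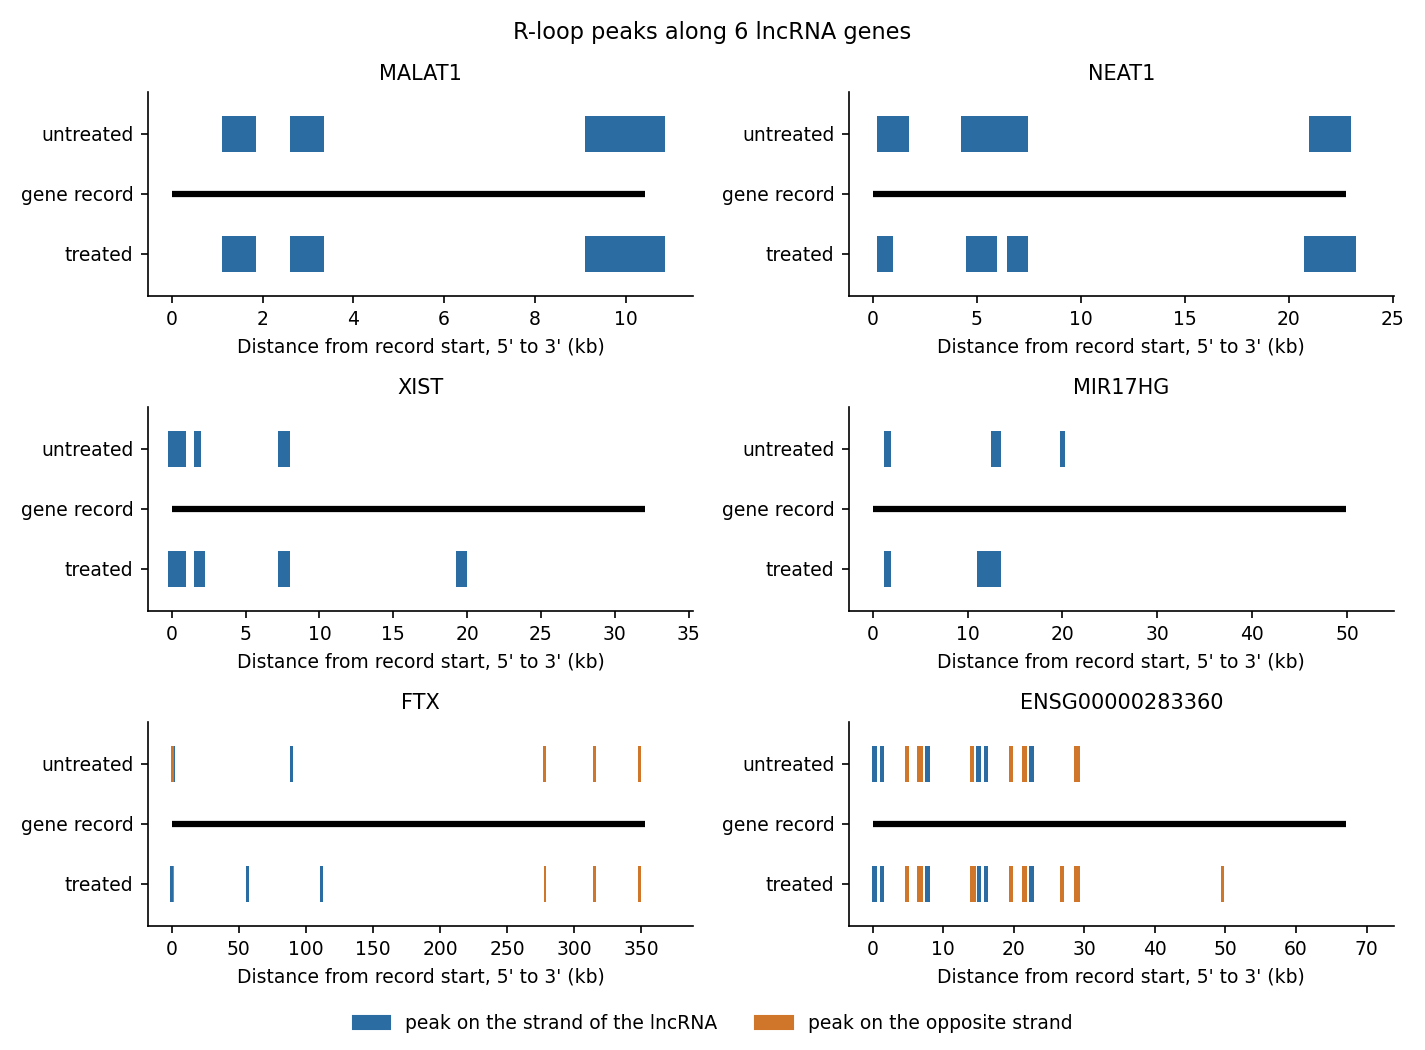
R-loop peaks along 6 lncRNA genes drawn 5′ to 3′ (horizontal axis, kb from the record start), with untreated peaks above and treated peaks below the black gene record and colour giving the strand relative to the lncRNA. Blocks are to scale except that the narrowest are drawn slightly wider to be visible; MALAT1 has the same 3 peaks in both lists, NEAT1 has 3 and 4, and ENSG00000283360 has 12 and 14 on both strands. Peaks close to the FTX start overlie one another at this scale.

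Each gene that has an SNHG name in this release and a peak that met the rule had one near its start. Of 32 SNHG genes looked for, 11 had a peak that met the rule, 7 had peaks only inside or within 1000 bp of a coding record, 10 had no peak and 4 had no record of that name. All 11 had peaks in both lists, 12 untreated and 13 treated, each on the strand of the gene. SNHG8 had a peak 188 bp from its start in untreated and 313 bp in treated cells, SNHG7 one at 234 bp with the same borders in both, and SNHG17 one at 217 bp, also with the same borders. The farthest first peak was that of SNHG12, at 1372 bp from the record start but 58 bp from the start of a transcript. SNHG26 had a further peak at 6131 bp (untreated) or 5506 bp (treated), and another at 8256 bp in the treated list alone. The peak nearest the start was wider in untreated cells in 4 SNHG genes, wider in treated cells in 3 and of equal width in 4. Its width without and with treatment was 2000 and 1000 bp in SNHG16, 1500 and 750 bp in both SNHG6 and SNHG29, 750 and 1000 bp in SNHG8, and 1000 and 1250 bp in SNHG11. GAS5, a snoRNA host known to bind the glucocorticoid receptor, had a wide peak inside the gene, 2500 bp wide without treatment and 2750 bp wide with it, at 6557 and 6682 bp from the record start. ZFAS1, another snoRNA host, had its peak at 11995 and 12245 bp from the record start but 715 and 465 bp from the start of a transcript. MIR9-1HG, a microRNA host, had 1 peak in each list at 35092 bp from the record start and 81 bp from the start of a transcript. MIR17HG, the host of an oncogenic microRNA cluster, had 3 untreated peaks at 1611, 12986 and 19986 bp from its start, and 2 treated peaks at 1611 and 12236 bp, with widths of 750 and 2500 bp. Of 13 MIR host genes with a peak that met the rule, 12 were in both lists and 1 in the untreated list alone.

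Over the 66 known lncRNA names looked for, 24 had peaks that met the rule, 22 of them in both lists. MIAT and CYTOR each had 1 peak of 500 bp, in the untreated list alone. DANCR had peaks at 370 and 1620 bp in untreated cells and 1 peak at 495 bp in treated cells. Another 14 names, among them SNHG1, KCNQ1OT1, OIP5-AS1 and SOX2-OT, had peaks only inside or close to coding records, 20 had none, among them H19, MEG3, HOTAIR, TERC and PVT1, and 6 had no record under the name used. TUG1 has the type protein-coding and RMRP the type ribozyme in this release, so they were not counted. The name LINC01578 is given by RefSeq as an older name of CHASERR, which is described above. A gene without a peak is absent from these lists only, since they do not give signal below the authors' threshold.

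R-loop peaks in lncRNA genes were shared between the lists about as often as other peaks. Of the untreated peaks, 460 of 625 overlapped a treated peak by at least 1 bp (73.6%, 70.0% to 76.9%), compared with 74.8% of all untreated peaks. Of the treated peaks, 468 of 683 overlapped an untreated peak (68.5%, 64.9% to 71.9%), compared with 69.5% of all treated peaks. Set against the other peaks of each list, the differences were -1.32 points (-5.02 to 2.10) and -1.0 points (-4.69 to 2.48), and these intervals leave room for differences of a few points in either direction. The untreated list alone held 165 peaks in lncRNA genes and the treated list alone 215. The number of peaks was 1.09 times as large in the treated as in the untreated list, compared with 1.08 times for all peaks. Identical borders and strand were found for 204 peaks of each list (32.6% of untreated and 29.9% of treated peaks). The shares for other peaks were close to these, at 32.2% and 29.7%.

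Sharing rose with peak width, in lncRNA genes as in other peaks. In the untreated list 62.5% of 256 peaks of 500 bp or less, 72.8% of 147 peaks of 750 bp, 80.0% of 80 peaks of 1000 bp and 90.8% of 142 wider peaks were shared. In the treated list the shares were 56.2% of 281, 65.6% of 186, 74.1% of 85 and 95.4% of 131. Peaks within 1 kb of the start were shared in 81.4% of the untreated list compared with 69.2% beyond 1 kb, a difference of 12.2 points (5.18 to 18.8). The treated list gave 72.4% and 66.1%, a difference of 6.30 points whose interval spans 0 (-0.886 to 13.2). Peaks within 1 kb of the start had a median width of 500 bp, compared with 750 bp beyond 1 kb, in both lists, and the shares were not compared within widths.

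**Figure D4:**
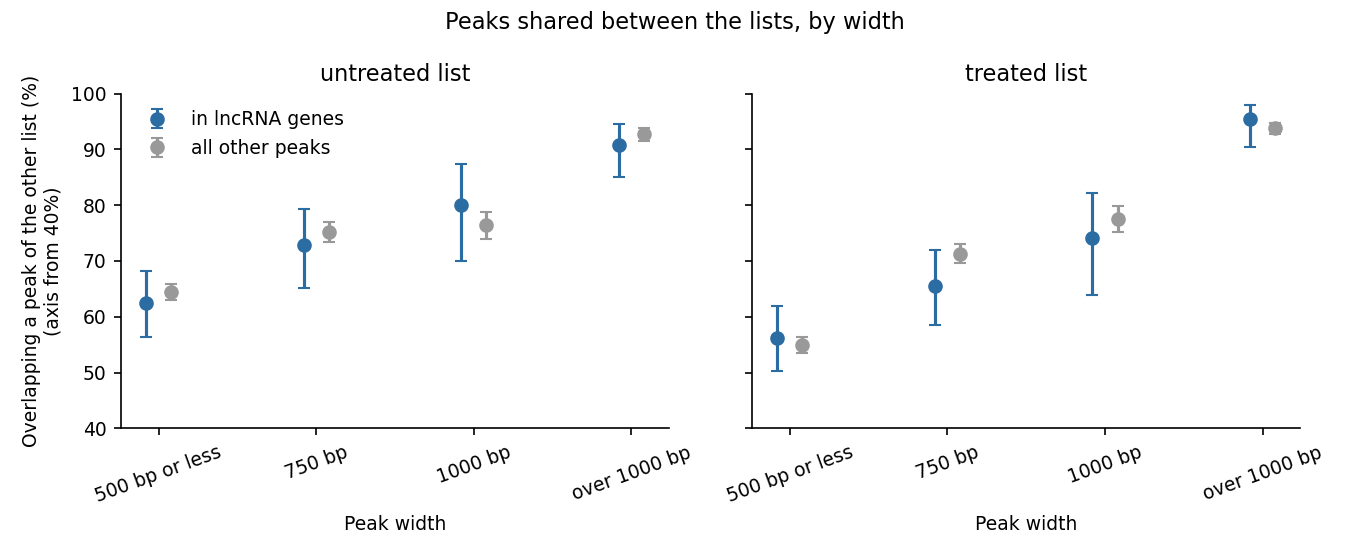
Share of R-loop peaks with an overlapping peak in the other list (vertical axis, %, drawn from 40%) by peak width (horizontal axis), for peaks in lncRNA genes and all other peaks of the untreated (left) and treated list (right), with 95% Wilson intervals. The share in lncRNA genes goes from 62.5% to 90.8% in the untreated list and from 56.2% to 95.4% in the treated list.

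Peaks in lncRNA genes fell in 800 genes, which is 4.28% of all lncRNA records. Of these, 450 had peaks in both lists (56.2%, 52.8% to 59.7%), 150 in the untreated list alone and 200 in the treated list alone. The shared genes were 75% of the 600 genes of the untreated list and 69.2% of the 650 genes of the treated list. For protein-coding genes with a peak midpoint in either list, 62.8% had one in both. In 439 of the 450 genes a peak overlapped a peak of the other list, in 212 a peak had identical borders, and in 11 the peaks of the lists lay in different places. Most genes held 1 peak per list: 532 of 600 untreated and 572 of 650 treated genes did, while 19 and 22 genes held 3 or more. Of the 350 genes found in 1 list, 337 had 1 peak in all, and 74 had a peak of the other list that overlapped the record, whether or not that peak met the rule.

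Grouped by kind of name, the genes differed in how often they were in both lists. The host genes had the highest shares (11 of 11 SNHG and 12 of 13 MIR host genes), counting only genes with peaks that met the rule. Among the host genes looked for whose peaks did not meet it, SNHG4, SNHG10, SNHG31 and MIR22HG had them in the treated list alone. SNHG1, SNHG3, SNHG5, SNHG20 and MIR4435-2HG had them in both lists. Genes named as antisense to another gene were in both lists in 53 of 86 cases (61.6%, 51.1% to 71.2%), with 19 in untreated cells alone and 14 in treated cells alone. LINC genes were in both in 69 of 130 (53.1%, 44.5% to 61.4%) and genes with a clone or Ensembl name in 220 of 413 (53.3%, 48.4% to 58.0%), with 74 in untreated cells alone and 119 in treated cells alone. Divergent transcripts, which start next to a coding gene and run away from it, were in both in 15 of 35 cases (42.9%, 28.0% to 59.1%). The distance requirement can bar peaks at the starts of divergent transcripts, and its part in this share was not tested. Among the groups other than the host genes, these intervals overlapped one another. There were 29 genes with peaks on both strands, of which 27 were in both lists (93.1%). Such a gene holds at least 2 peaks, and of the 369 genes with 2 peaks in all, 358 were in both lists, so that count follows from how these genes were chosen. Among those with peaks on both strands were LINC00863, LINC00910 and NCF1B with 2 peaks in each list.

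**Figure D5:**
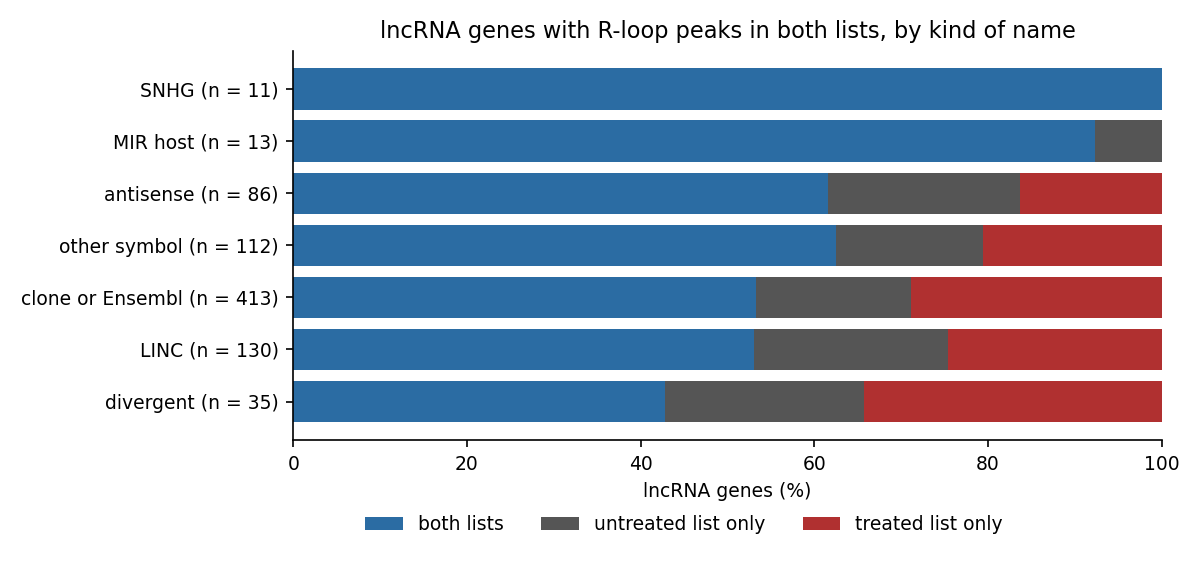
Share of lncRNA genes (horizontal axis, %) with R-loop peaks in both lists, in the untreated list alone or in the treated list alone, for each kind of gene name (vertical axis, with the number of genes). SNHG genes with a peak that met the rule are all in both lists (11 of 11), and divergent transcripts with such a peak are least often in both (15 of 35).

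Repeated sequence held more of the peaks in lncRNA genes than of other peaks. A peak was counted as repeated when at least 3 of 5 evenly spaced words of 31 bases occurred more than once in GRCh37. This held for 171 untreated (27.4%) and 192 treated (28.1%) peaks in lncRNA genes, and for 9.79% and 9.39% of the other peaks. The differences were 17.6 points (14.2 to 21.3) and 18.7 points (15.4 to 22.3). In the treated list repeated peaks were shared less often than the rest, 61.5% compared with 71.3% (difference -9.83 points, -17.8 to -2.03), and in the untreated list 70.2% compared with 74.9% (-4.71 points, -12.9 to 2.89). A record tagged by GENCODE as overlapping a pseudogene held 14.4% of untreated and 16.8% of treated peaks. By the study's methods Bowtie2 ran at its default, which reports 1 place for a read and picks at random among equally good ones. Whether such reads were removed later is not given in the sources used here, and their part in these peaks was not tested.

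Median base composition differed between peaks at lncRNA starts and those farther inside, with overlapping quartiles. In the untreated list the quartiles of GC content were 51.4% and 62.65% within 1 kb of the start, and 45.9% and 57.5% beyond it. The median GC content of peaks in lncRNA genes was 52.9% (untreated) and 54.8% (treated), compared with 56.4% and 57.7% of the other peaks. The ratio of observed to expected CpG was 0.488 and 0.529, compared with 0.619 and 0.651. Within 1 kb of the record start the median GC content was 57.5% and 58.8% and the CpG ratio 0.671 and 0.710, while beyond 1 kb they were 50.3% and 51.6%, and 0.338 and 0.369. The median GC skew on the peak strand was close to 0, at -0.0032 (untreated) and -0.014 (treated), with quartiles of -0.070 and 0.060 and of -0.084 and 0.041. On the opposite strand to the lncRNA it was -0.019 and -0.044, and on the lncRNA strand 0.0021 and -0.0066. A pattern of 4 runs of at least 3 G with gaps of 1 to 7 bases, as in G-quadruplex structures, was found on the peak strand in the central 500 bp of 8.96% of untreated and 10.1% of treated peaks in lncRNA genes, compared with 12.3% and 13.3% of other peaks (differences of -3.35 points, -5.46 to -0.777, and of -3.22 points, -5.37 to -0.653). On the other strand of the same peaks it was found in 12.0% and 14.4%.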

How the data were processed

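Cells were profiled by spKAS-seq with 2 samples per condition and 2 inputs. Per the study's methods and the submitters' processing notes, the authors used Trim Galore, Bowtie2 (hg19) and Picard for trimming, alignment and removal of duplicates, and then defined R-loops from the replicates together. The deposited lists, 1 per condition and attached to replicate 1, hold positions and strands, with no score, signal or depth; whether each stands for both replicates is not stated in them. Peaks were assigned by midpoint to GENCODE release 44 records mapped to GRCh37 (18702 lncRNA and 20176 protein-coding), and overlaps were counted from 1 bp without regard to strand. Sequences were read from GRCh37, and tRNA gene names and their neighbours were taken from RefSeq without its coordinates. Peaks masked over more than 50% did not enter the base composition. In lncRNA genes this was 1 peak in each list, on chromosome Y, and among the other peaks 10 untreated and 11 treated. Named genes were a set of known lncRNAs, the genes with the most peaks (down to and including all those tied at 6), those of the widest peaks and those with peaks on both strands. Printed windows followed the widest peaks, and 3 of the 8 windows chosen are not reported here. The members and lists were chosen with earlier results of these data known, and no test between conditions was run. Assignment, strand, distance and overlap were tested on simulated data. The work used matplotlib 3.10.9, pysam 0.24.0, scipy 1.17.1, pandas 2.3.3 and numpy 2.4.6 under Python 3.11.15.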

Additional observations from a re-analysis of the deposited data

How the results depend on the processing

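Of 81 values of 11 results under 13 alternatives, 39 stayed within 1.5 times the count or within the counting interval of the share, and 42 moved. Counting all peaks outside coding records gave 1099 untreated and 1179 treated peaks, 71.7% and 72.4% on the lncRNA strand, 51.3% and 53.4% within 1 kb of the start, and 1075 and 1138 genes, 820 in both lists. Beyond 5000 bp of coding records there were 406 untreated peaks, 76.8% and 76.5% on the lncRNA strand, 41.9% of untreated peaks within 1 kb, 64.7% of treated peaks shared, 381 untreated genes and 290 in both lists. With any overlap, 42.0% and 44.2% were within 1 kb. With peaks of 750 bp or more there were 369 and 402 peaks, 29.8% and 32.3% within 1 kb, 81.3% and 77.1% shared, and 371 and 395 genes, 266 in both. Peaks in exactly 1 record were on the lncRNA strand in 70.0% and 72.4%. The share within reach of a start was 47.8% and 49.9% for the nearest transcript, 27.2% and 29.6% within 500 bp, and 45.9% and 46.7% within 2000 bp. A reciprocal overlap of 50% left 65.8% and 60.6% shared, and one of 90% left 34.2% and 31.2%. Without clone or Ensembl names there were 306 and 311 genes, 230 in both. Leaving out peaks in repeated sequence, chosen after seeing the data, moved none of the 11 results, with 454 untreated and 491 treated peaks left. In each setting that changed the set of peaks, most were on the lncRNA strand. No paired analysis was possible because there was 1 peak list per condition. Peak heights and read depth were not analysed here, so a weak R-loop cannot be told from none, and a gene found in 1 list may differ from the other by little.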
